A study of Mus musculus with 2 samples.

Results

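The clustered protocadherins are 58 of the 51826 genes in the deposited gene table, taken by symbol: 14 in the alpha cluster, 22 in the beta cluster and 22 in the gamma cluster. The 14 alpha genes comprise 12 numbered genes and 2 C-type genes, and the 22 gamma genes comprise 12 A-type, 7 B-type and 3 C-type genes. All lie on the plus strand of chromosome 18, at 36930184 to 37187661 (alpha), 37264938 to 37524479 (beta) and 37661793 to 37841873 (gamma) in GRCm38.p6, the build that the submitters' processing notes name. The RNA came from whole spinal cord at postnatal day 7, the mice were C57BL/6, and each of 2 genotypes is represented by 1 library: wild type (WT), and Olig1-Cre with Secisbp2l floxed at exon 3 (cKO). Olig1-Cre recombines in the oligodendrocyte lineage, and these data do not show in which other cells it recombined. Protocadherins are studied mainly in neurons, and the labels do not give the number of animals in a library. In whole-cord RNA, fewer cells of a type and less RNA per cell cannot be told apart. Since neither genotype has a second library, no difference below has a replicate check or a p-value. Every interval is a Clopper-Pearson 95% interval and reflects the counting error alone.

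Clustered protocadherins are transmembrane adhesion proteins of the cadherin superfamily that bind identical isoforms on a facing membrane. A neuron expresses a combination of them, which lets its own branches be told from those of other cells, and mice lacking the gamma cluster lose many spinal interneurons to cell death. Each alpha and gamma gene has its own promoter and its own large variable exon for the extracellular and transmembrane parts, and this exon is spliced to constant exons for the intracellular part that are common to the cluster. Beta genes are single exons with no constant part. Most numbered genes are chosen promoter by promoter in each neuron, with CTCF, cohesin and DNA methylation taking part, and the C-type genes follow separate rules.

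This exon sharing bears on every alpha and gamma value. In the GENCODE M21 annotation, the 3 constant exons of the alpha cluster are 59, 89 and 2712 bases long, together 2860 bases or 53.6% of the median length of an alpha gene's main transcript. The 3 constant exons of the gamma cluster are 59, 89 and 1971 bases long, together 2119 bases or 44.9% of the median main transcript. Reads from a constant exon could come from any gene of the cluster, and the deposited counts are estimates that divide them among the genes. Words of 100 bases found in no other gene's transcripts made up a median of 44.9% of an alpha main transcript, 55.9% of a gamma one and 99.8% of a beta one. The lowest share was that of Pcdha4, at 3.51%, where a read-through model, Gm42416, covers the gene. For 22 of 22 beta genes the main transcript has 1 exon, so a beta count does not depend on such a division to any comparable degree.

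Estimated counts totalled 42875143 in WT and 55179026 in cKO, with about 2 counts per sequenced fragment. The libraries also differed apart from the floxed gene: Xist had 35182 counts in WT and 13 in cKO, while the Y-linked genes Ddx3y, Uty, Kdm5d and Eif2s3y were listed at 0 in WT and at 1081 to 4280 counts in cKO, so sex and genotype cannot be told apart. Secisbp2l had 588 counts per 1000000 counts of the library (CPM) in WT and 466 in cKO, a value for the whole gene and not for exon 3. Olig1 had 388 CPM in WT and 176 in cKO (log2 ratio of cKO over WT -1.14). Markers of oligodendrocytes were lower in cKO for 6 of 6 genes (summed level 14139 CPM in WT and 6979 in cKO), and of the markers measured for astrocytes (5 genes), microglia (4), endothelium (3), meninges (3), ependyma (2) and choroid plexus (1 of 3) none was counted as higher or lower by the rule given below. The choroid plexus marker Ttr had 2 counts in WT and 0 in cKO. Markers of neurons were abundant, at a summed 3815 CPM in WT and 4344 in cKO over 6 genes.

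Of the 58 genes, 56 were measured, meaning a mean over the libraries of at least 1 CPM, and these 56 reached 1 CPM in each library. The 2 others were Pcdhb1 and Pcdhb21. A gene was counted as higher or lower in cKO where its CPM ratio was at least 1.5-fold and its interval left out a ratio of 1. By this rule 5 members were higher and 3 lower. Among all 15917 measured genes, 2.46% were higher and 3.42% lower, and among the 1286 measured genes that share exon bases with another gene on their strand, 4.82% were higher and 5.83% lower. The calls were uneven over the clusters: 6 of them fell in gamma (4 higher, 2 lower), 1 in alpha (higher) and 1 in beta (lower).

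**Figure D1:**
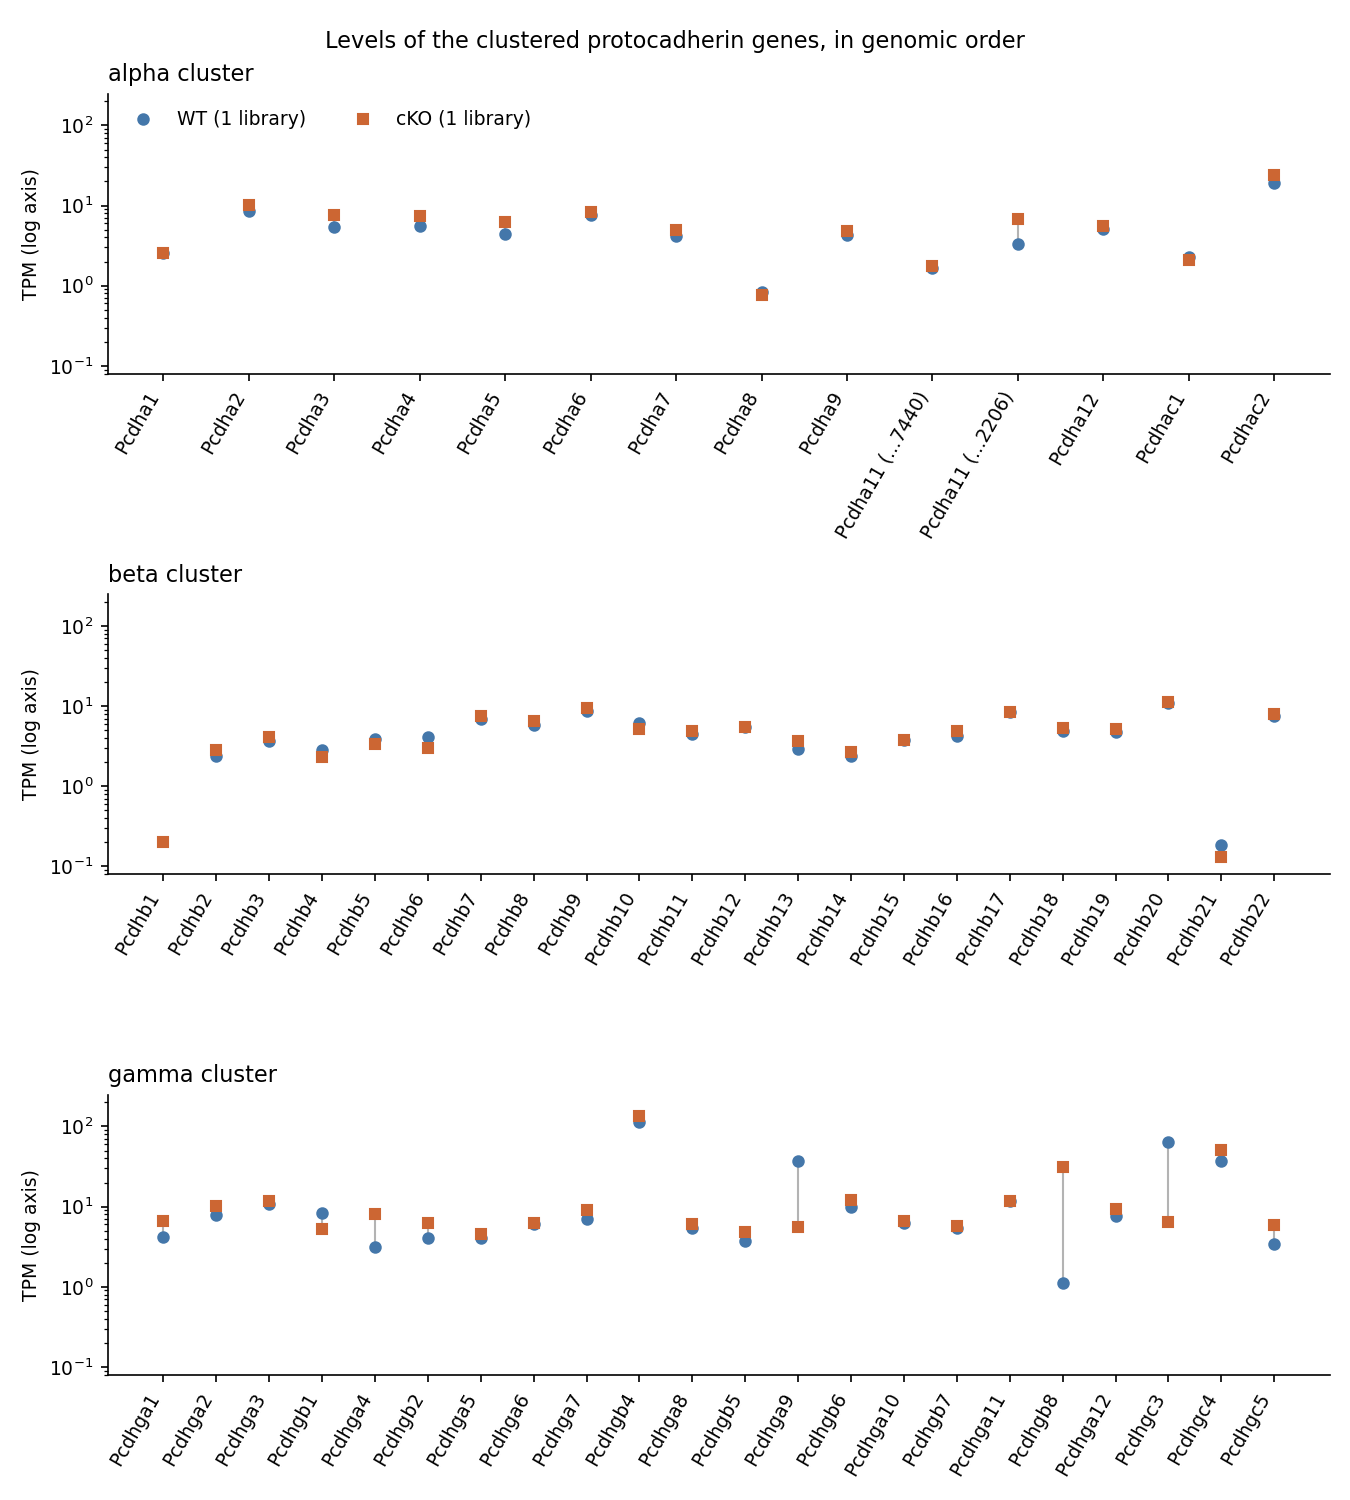
Level of each clustered protocadherin gene in transcripts per 1000000 transcripts (TPM, log axis), in genomic order within each cluster, with a circle for the WT library, a square for the cKO library and a grey line between them. Alpha and beta symbols lie close together for nearly every gene, whereas Pcdhga9, Pcdhgb8 and Pcdhgc3 lie far apart; the WT value of Pcdhb1 is 0 and is not drawn, and the Pcdha11 rows are marked by the last 4 digits of their gene IDs.

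Summed over its members, each cluster had a similar level in the libraries. The gamma genes were the most abundant, with 762 CPM in WT and 737 in cKO (log2 ratio of cKO over WT -0.05, interval -0.08 to -0.02). The beta genes summed to 193 CPM in WT and 196 in cKO (log2 ratio 0.02, -0.04 to 0.08). The alpha genes summed to 176 CPM in WT and 214 in cKO, a log2 ratio of 0.28 (0.22 to 0.34). Only the alpha interval lay wholly above 0, and 11.1% of all measured genes had a ratio at least as high as the alpha sum. The 3 clusters together took 0.113% of all counts in WT and 0.115% in cKO. Per length, in transcripts per 1000000 transcripts (TPM), the gamma cluster summed to 363 in WT and 361 TPM in cKO, the beta cluster to 104 and 108 TPM, and the alpha cluster to 74.5 and 93.1 TPM. A sum of counts over a cluster does not change with how shared reads are divided within it, whereas a TPM sum can, because TPM divides by the length of each transcript.

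The beta genes, whose variable exon is the whole gene, were about as level between the libraries as measured genes in general. Of the 20 measured beta genes, 13 had a ratio above 0 and 7 below, with a median log2 ratio of 0.06 beside 0.01 for all measured genes. For 19 of the 20 the log2 ratio was within 0.5 of 0, beside 90.8% of all measured genes, 13 of 14 alpha genes and 14 of 22 gamma genes. The intervals of 19 beta genes included 0. The ratio of the 19 that were not called ran from -0.32 to 0.31. Their levels ran from 2.36 to 11.0 TPM in WT and from 2.30 to 11.3 TPM in cKO, so no beta gene dominated the cluster.

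Pcdhb20 had the highest level, at 11.0 TPM in WT and 11.3 in cKO, from 753 and 970 counts. It was followed by Pcdhb9 (8.58 TPM in WT and 9.60 in cKO) and Pcdhb17 (8.42 and 8.48 TPM). The log2 ratios of these 3 genes were 0.00, 0.13 and -0.02. Pcdhb22, the last gene of the cluster, held the largest share of its counts, 11.6% in WT and 11.9% in cKO. Pcdhb6 was the beta gene past the size limit, with 256 counts in WT and 215 in cKO, or 4.10 and 2.96 TPM. Its log2 ratio was -0.61 (-0.998 to -0.23), close to the limit of 0.58, and on the deposited TPM, with a pseudocount of 0.1, it was -0.46 and no longer past the limit.

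At the other end, Pcdhb21 had 17 counts in WT and 15 in cKO, and Pcdhb1, the first gene of the cluster, had 0 and 13. With its WT count of 0 set to 3 fragments (0.140 CPM), Pcdhb1 had a 1.69-fold ratio of cKO over WT, at a level too low to be measured by the rule. This value leaves out the counting error of cKO, and the lower limit of the log2 interval was 0.03. The order of the beta genes by TPM was much the same in both libraries (Spearman's rho 0.96 across 22 genes, which share libraries and depth).

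The alpha genes leaned towards higher values in cKO. Of 14 measured genes, 11 had a ratio above 0 and 3 below, with a median log2 ratio of 0.19, beside 52.3% of all measured genes above 0. The interval lay wholly above 0 for 6 alpha genes and wholly below 0 for none, beside 21.9% and 18.4% of all measured genes. As sums, the numbered genes and the C-type genes had the same ratio: 120 and 146 CPM for the 12 numbered genes (log2 ratio 0.28, 0.21 to 0.36), and 55.4 and 67.2 CPM for the 2 C-type genes (0.28, 0.17 to 0.39). Their members differed: Pcdhac2 was at 0.32 and Pcdhac1 at -0.19. Without its member of highest ratio the numbered sum was at 0.23. Neuronal markers were set beside the alpha sum and beside the beta and gamma sums (log2 ratios 0.02 and -0.05). Of 6 general neuronal markers, 5 were above 0, with a median log2 ratio of 0.21 and a range of -0.06 to 0.26. All 9 markers of spinal interneurons were above 0, with a median of 0.21 and a range of 0.11 to 0.52. None of these markers was past the size limit. The part of neuronal content in the alpha values was not tested.

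Pcdhac2, a C-type gene known for its role in the spacing of serotonergic axons, was the alpha gene of highest level. It had 18.9 TPM in WT and 24.2 in cKO, from 2136 and 3438 counts, which is 28.3% and 29.2% of the alpha counts. Its log2 ratio was 0.32 (0.21 to 0.44), under the size limit. The other C-type gene, Pcdhac1, had 2.30 TPM in WT and 2.07 in cKO, from 239 and 270 counts, with a log2 ratio of -0.19 (-0.55 to 0.18). Serotonergic neurons lie in the brainstem and send axons to the cord, and of their markers Fev had 0 counts in both libraries, Tph2 had 8 and 16 counts and Slc6a4 had 13 and 7. Slc18a2, from the same list, had 280 counts in WT and 337 in cKO (log2 ratio -0.09). Ddc, which is not particular to these cells, was lower in cKO (28.5 and 18.4 CPM, log2 ratio -0.63).

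Among the numbered alpha genes, Pcdha2 (8.53 TPM in WT and 10.2 in cKO) and Pcdha6 (7.54 and 8.36 TPM) were the highest, with log2 ratios of 0.23 and 0.10. Pcdha8 was the lowest, with 87 counts in WT and 99 in cKO, or 0.845 and 0.764 TPM. The gene table lists Pcdha11 under 2 gene IDs. The row that lies next to Pcdha9 (ENSMUSG00000007440) was the second lowest, with 169 and 230 counts and a log2 ratio of 0.08 (-0.34 to 0.51). The row that lies next to Pcdha12 (ENSMUSG00000102206) was the alpha member past the size limit. It had 243 counts in WT and 688 in cKO, or 3.30 and 6.83 TPM, a log2 ratio of 1.14 (0.84 to 1.45).

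Most of the difference of the Pcdha11 row ENSMUSG00000102206 lay in its 5-exon transcript, Pcdha11-203, with 199 counts in WT and 614 in cKO. Its 4-exon transcript, Pcdha11-202, had 33 and 43 counts. Antisense genes Gm10544 (42 and 60 counts) and Gm10545 (93 and 81 counts) lie over its exons, and the strand setting of the counting is not given in the sources used here. Without this row the 11 other numbered alpha genes had 115 CPM in WT and 134 in cKO, a log2 ratio of 0.23 (0.15 to 0.30).

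The last alpha constant exon can be spliced further to give a shorter intracellular part, and transcript models of both forms are annotated for 5 of the alpha genes. The further spliced form with 5 exons took 19.0% of alpha counts in WT and 20.6% in cKO (1431 and 2424 counts, log2 ratio 0.40, 0.26 to 0.53). The form with 4 exons had 6069 and 9279 counts (log2 ratio 0.25, 0.18 to 0.32). Pcdha2 and Pcdha6 were assigned mainly to the 5-exon form in both libraries: Pcdha2-202 took 83.6% (WT) and 76.2% (cKO) of the gene's counts, and Pcdha6-201 took 74.2% and 83.0%. In Pcdha1 the 5-exon form, Pcdha1-202, took 16.6% and 30.8%. The alpha order by TPM was kept between the libraries (Spearman's rho 0.94 across 14 genes that share constant exons, libraries and depth).

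**Figure D2:**
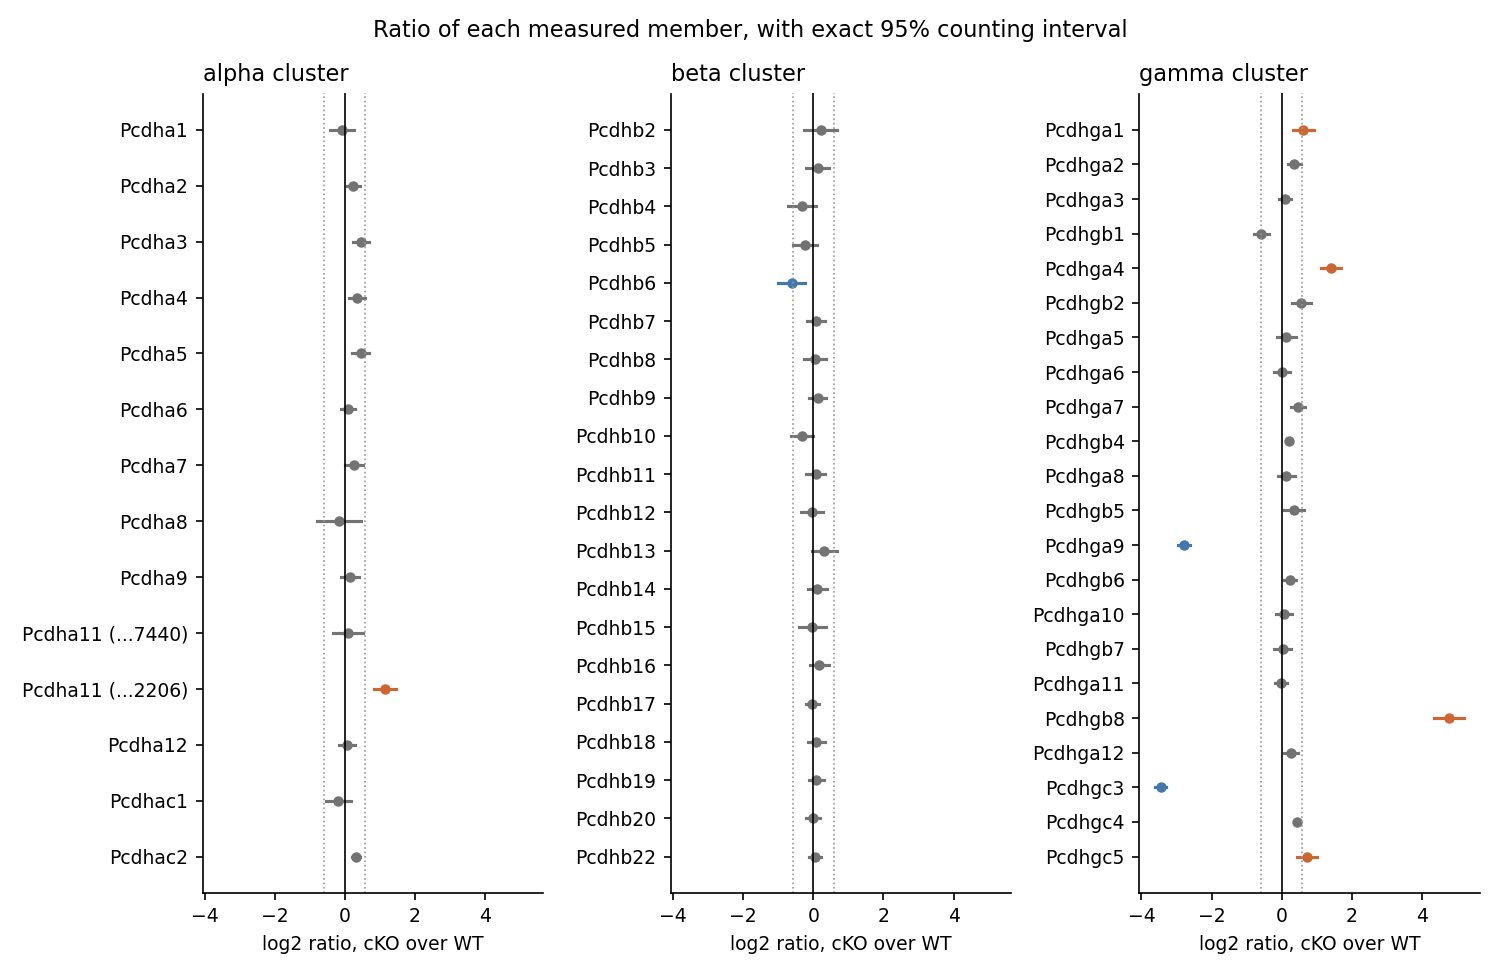
Log2 ratio of cKO over WT of scaled CPM for the 56 measured members, by cluster in genomic order, with exact 95% counting intervals as bars. Dotted lines mark a 1.5-fold difference; orange members were higher and blue members lower by the size rule, and beta ratios lie between -0.61 and 0.31 whereas gamma ratios run from -3.45 to 4.77.

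The gamma cluster combined a level sum with large differences in single genes. Of 22 genes, 18 had a ratio above 0 and 4 below, with a median log2 ratio of 0.23. The ratios ran from -3.45 for Pcdhgc3 to 4.77 for Pcdhgb8. Among all 15917 measured genes, 12 had a ratio as high as that of Pcdhgb8 or higher, and 21 had a ratio as low as that of Pcdhga9 or lower. Both counts include the members themselves.

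Pcdhgb4, a B-type gene, was the most abundant clustered protocadherin in both libraries. It had 115 TPM in WT and 137 in cKO, from 10305 and 15323 counts, with a log2 ratio of 0.21 (0.16 to 0.26). Its share of gamma counts was 31.5% in WT and 37.7% in cKO. This gene alone had a higher level than the 22 beta genes together, which summed to 104 TPM in WT and 108 in cKO.

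Pcdhgc3, a C-type gene linked to dendrite branching through its partner Axin1, was second in WT and 13th in cKO by TPM. It had 5827 counts in WT and 685 in cKO, or 64.8 and 6.44 TPM, a log2 ratio of -3.45 (-3.62 to -3.29). Its share of gamma counts was 17.8% in WT and 1.68% in cKO. Pcdhga9, an A-type gene, had 3330 counts in WT and 624 in cKO, or 36.8 and 5.63 TPM, a log2 ratio of -2.78 (-2.96 to -2.60). Its rank by TPM was 3 in WT and 19 in cKO. In cKO, both genes thus lay within the range of the many gamma genes of low level, and in WT far above it.

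Pcdhgb8 went the other way. It had 98 counts in WT, the lowest of the cluster, and 3431 in cKO, or 1.11 and 30.9 TPM, a log2 ratio of 4.77 (4.36 to 5.21). Its rank by TPM was 22 in WT and 3 in cKO. GENCODE types its main transcript, Pcdhgb8-201, as a polymorphic pseudogene, that is, a gene broken in the reference strain and intact in some others. In the genome it is separated from Pcdhga9 by 4 other gamma genes, none of them past the size limit.

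**Figure D3:**
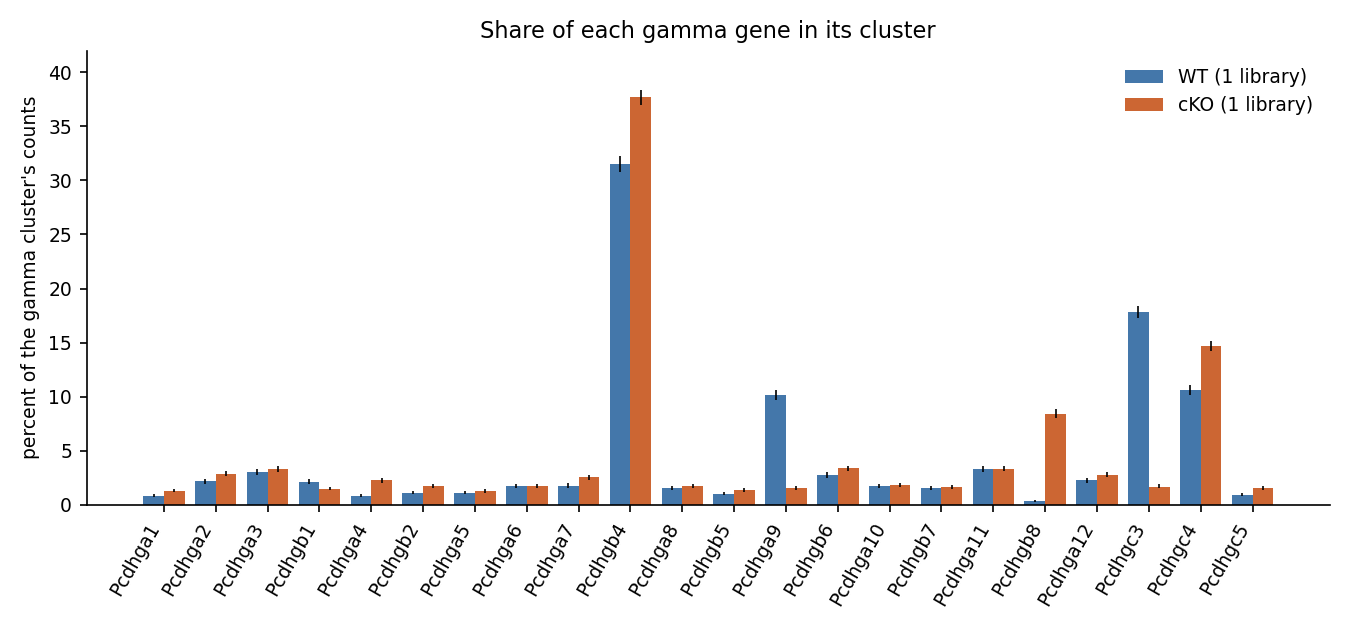
Share of the gamma cluster's estimated counts given to each gamma gene, in genomic order, in the WT library (blue) and the cKO library (orange), with exact 95% binomial intervals for counting error. Pcdhgb4 leads in both libraries, Pcdhgc3 and Pcdhga9 have 17.8% and 10.2% in WT and under 2% in cKO, and Pcdhgb8 has 0.300% in WT and 8.44% in cKO.

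Summing these genes shows how much of the differences balanced; the sums were chosen after the values were seen. Pcdhga9 and Pcdhgb8 together had 3428 counts in WT and 4055 in cKO, or 79.9 and 73.5 CPM, a log2 ratio of -0.12 (-0.21 to -0.03). With Pcdhgc3 added, the 3 genes had 216 CPM in WT and 86.0 in cKO (log2 ratio -1.33). With Pcdhgb4 and Pcdhgc4 also added, the 5 genes had 537 and 472 CPM (log2 ratio -0.18, -0.22 to -0.15). The 17 other gamma genes had 226 CPM in WT and 265 in cKO, a log2 ratio of 0.23 (0.18 to 0.29), near that of the alpha sum. Thus the near-equal gamma total held 5 genes that were together lower in cKO and 17 that were together higher. Of the 5, only Pcdhgc3 and Pcdhga9 had ratios below 0, while Pcdhgb8, Pcdhgb4 and Pcdhgc4 had log2 ratios of 4.77, 0.21 and 0.42.

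The gene types differed in the same manner, according to the single gene each contained. The 12 A-type genes summed to 231 CPM in WT and 195 in cKO (log2 ratio -0.24), and without Pcdhga9 to 154 and 184 CPM (0.26, 0.20 to 0.33). The 7 B-type genes summed to 307 and 410 CPM (0.41), and without Pcdhgb8 to 305 and 348 CPM (0.19, 0.14 to 0.23). The 3 C-type genes summed to 224 and 132 CPM (-0.76), and without Pcdhgc3 to 87.7 and 120 CPM (0.45, 0.37 to 0.53). The direction of the A-type and C-type sums therefore turned with the removal of 1 gene.

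**Figure D4:**
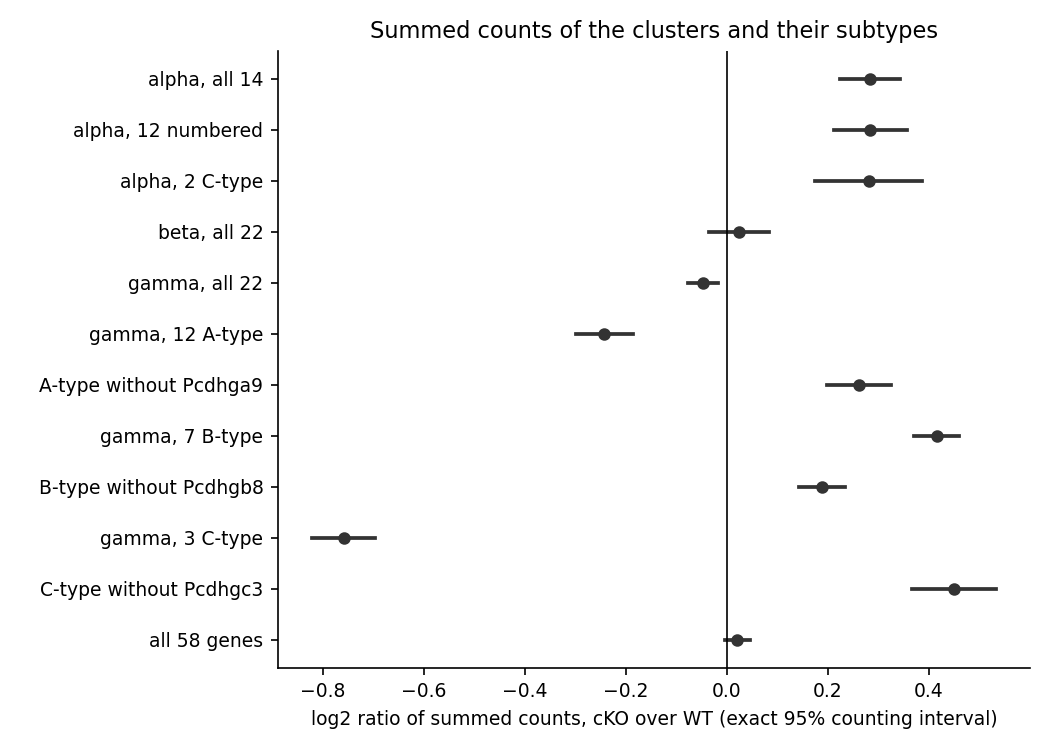
Log2 ratio of cKO over WT of the summed counts of each cluster and subtype (points), with exact 95% counting intervals (bars). The beta and total sums lie near 0 and the alpha sums near 0.28, whereas the A-type and C-type gamma sums lie below 0 with all their genes and above 0 without Pcdhga9 or Pcdhgc3.

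The transcripts of these genes were compared next. The 4-exon transcripts, which hold the constant exons, carried nearly all of the difference. Pcdhgc3-201 had 5820 counts in WT and 545 in cKO, Pcdhga9-201 had 3314 and 590, and Pcdhgb8-201 had 95 and 3430. Models that hold sequence of the variable region without the constant exons had few counts. Pcdhgc3-203, a single-exon model typed as a retained intron, had 7 counts in WT and 19 in cKO. Pcdhga9-202, of the same kind, had 16 and 34. Both counts are low, and the interval of each ratio included 0. Reads of the variable exon can be assigned to such a model or to the 4-exon one. These counts therefore cannot show how the variable exon differed.

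Over the cluster, single-exon gamma transcripts summed to 499 counts in WT and 871 in cKO, a log2 ratio of 0.44 (0.21 to 0.67), and made up 1.53% and 2.14% of gamma counts. Pcdhga1-202 carried most of this difference, and the 7 others summed to 263 and 366 counts, a log2 ratio of 0.11 (-0.22 to 0.45). Transcripts of 4 or more exons had a log2 ratio of -0.05. A further Pcdhgc3 transcript with 5 exons, Pcdhgc3-202, typed as a target of nonsense-mediated decay, was listed at 0 counts in WT and had 121 in cKO. The gene BC037039 lies antisense over Pcdhgc3, with 102 and 183 counts. Whether Pcdhgc3, Pcdhga9 and Pcdhgb8 differed in their own RNA, or in the share of constant-exon reads given to them, was not tested, since the tables used here give counts by gene and by transcript and not by exon.

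The annotated ends of the gamma models also differ. For 17 gamma genes the last exon ends at 37841873, and for 5 it ends 3 bases earlier, at 37841870. Those 5 genes, among them Pcdhgb4, Pcdhga9 and Pcdhgb8, together took 46.3% of gamma counts in WT and 52.0% in cKO (log2 ratio 0.12, 0.08 to 0.16).

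Pcdhgc4, the gamma isoform known to be needed for the survival of neurons, had 3460 counts in WT and 5967 in cKO, or 36.6 and 50.4 TPM. Its log2 ratio was 0.42 (0.34 to 0.51), under the size limit, and its rank by TPM was 4 in WT and 2 in cKO. Pcdhgc5, the C-type gene at the end of the cluster, had 302 counts in WT and 635 in cKO, or 3.39 and 5.93 TPM, a log2 ratio of 0.71 (0.43 to 1.00). Its main transcript, Pcdhgc5-201, had 221 and 498 counts, and a retained-intron model, Pcdhgc5-202, had 78 and 127. Thus the C-type genes next to Pcdhgc3 both had ratios above 0.

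Pcdhga4 and Pcdhga1 were the remaining gamma genes past the limit. Pcdhga4 had 267 counts in WT and 914 in cKO, or 3.15 and 8.20 TPM, a log2 ratio of 1.41 (1.13 to 1.70), and 36.0% of its main transcript's words were its own. Pcdhga1 had 270 counts in WT and 533 in cKO, or 4.15 and 6.69 TPM, a log2 ratio of 0.62 (0.31 to 0.93). Most of the Pcdhga1 counts were assigned to a single-exon model, Pcdhga1-202, with 236 in WT and 505 in cKO. In this model 100% of the words were found in no other gene. The 4-exon model, Pcdhga1-201, had 34 and 28 counts, so the higher value of Pcdhga1 was assigned to the model without the shared exons. How reads were divided between these models of Pcdhga1 was not tested. Among other single-exon models, Pcdhgb5-202 was also higher in cKO, with 18 counts in WT and 93 in cKO, and Pcdhga7-202 was lower, with 103 and 33.

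Just outside the size limit lay Pcdhgb1 (log2 ratio -0.58, 698 and 602 counts) and Pcdhgb2 (0.56, 361 and 686 counts), and just inside it Pcdhb6 and Pcdhga1. On the deposited TPM and FPKM, with a pseudocount of 0.1, Pcdhgb1 was past the limit (log2 ratios -0.63 and -0.65). In Pcdhgb1, a transcript of 2 exons, Pcdhgb1-202, had 167 counts in WT and 1 in cKO, while the 4-exon transcript Pcdhgb1-201 had 531 and 601. The 16 gamma genes that were not called had 3.72 to 115 TPM in WT and 4.60 to 137 TPM in cKO. Of these 16, 8 had intervals wholly above 0 and 1 wholly below, and the shares over all measured genes were 21.9% and 18.4%. The gamma genes of lowest mean level were Pcdhgb5 (3.72 and 4.86 TPM) and Pcdhga5 (4.08 and 4.60 TPM). Unlike those of the alpha and beta genes, the gamma order by TPM differed between the libraries (Spearman's rho 0.38 across 22 genes that share constant exons, libraries and depth); a difference between the clusters' orders was not tested.

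Genes that overlap the members were listed too. For 13 of the 58 members an antisense gene lies over an exon. Of the antisense genes, Gm37446 over Pcdhb12 was lower in cKO (96 and 66 counts, log2 ratio -0.90), while Pcdhb12 itself had 320 and 402 counts and a log2 ratio of -0.03. On the plus strand, the read-through models Gm37013, Gm37388 and Gm42416 had 0 counts in both libraries, and Gm38182 had 234 and 242. Adding the overlapping genes of the plus strand to the cluster sums left their ratios within the intervals given above. Their counts are so few beside the sums that little change was possible. The antisense genes were not added.

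Lists of related genes were compared in the same way, beside 2.46% higher and 3.42% lower and a median log2 ratio of 0.01 over all measured genes. Of 12 nonclustered protocadherins, which are encoded at scattered sites, 7 were above 0 and 5 below, with a median log2 ratio of 0.04, and 1 was past the limit. That gene was Pcdh19, an X-linked protocadherin, with 57.7 CPM in WT and 37.1 in cKO (log2 ratio -0.64, -0.76 to -0.52). Pcdh11x, also X-linked, had 129 and 138 CPM (log2 ratio 0.10). The highest of the nonclustered genes were Pcdh10 (232 and 246 CPM), Pcdh17 (228 and 251 CPM) and Pcdh1 (140 and 184 CPM), with log2 ratios of 0.09, 0.13 and 0.40. The summed level of the 12 was 380 TPM in WT and 432 in cKO, beside 363 and 361 TPM for the gamma cluster.

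Of 26 genes that take part in promoter choice, 17 were above 0 and 9 below, with a median log2 ratio of 0.09. The loop-forming factor Ctcf had 64.9 CPM in WT and 60.7 in cKO (log2 ratio -0.10), and the cohesin subunit Rad21 had 195 and 198 CPM (0.02). Ehmt2, a histone methyltransferase, had 154 and 164 CPM (0.09). Smchd1, a repressor of the clusters, had 44.6 and 49.4 CPM (0.15), and Dnmt3b, which methylates their promoters early in development, had 3.29 and 3.05 CPM (-0.11). The 1 gene past the limit was the DNA methyltransferase Dnmt3a, with 422 CPM in WT and 166 in cKO (log2 ratio -1.35, -1.40 to -1.29). Its counts were also divided differently between transcripts: ENSMUST00000174817 had 15435 counts in WT and 742 in cKO, and ENSMUST00000020991 had 2328 and 7224. Thus Dnmt3a as a whole was lower while one of its main transcripts was higher.

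Of 24 signalling partners and proteases, 7 were above 0 and 17 below, with a median log2 ratio of -0.05. Abi2, a subunit of the WAVE complex that binds some protocadherin tails, was lower in cKO (56.1 and 35.3 CPM, log2 ratio -0.67), and Abi1 of the same complex had 87.5 and 61.9 CPM (-0.50). Marcks had the highest level (747 and 630 CPM, -0.25), followed by Cyfip2 (460 and 495 CPM, 0.11) and Rac1 (434 and 379 CPM, -0.19). The kinases Ptk2, which gamma and alpha tails inhibit, and Fyn had log2 ratios of -0.13 and -0.02. Axin1, the Pcdhgc3 partner, had 29.8 CPM in WT and 36.9 in cKO (0.31), under the size limit.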

How the data were processed

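The mRNA libraries were made with a VAHTS kit and read on an Illumina HiSeq, per the labels. Bowtie2 2.3.2, CASAVA and GRCm38.p6 are named, without roles, in the submitters' processing notes. The sources used here give no counting tool, annotation release or strand setting. For each library the authors deposited estimated counts, TPM and FPKM of 51826 genes and 128622 transcripts, per the file headers. In all 51826 genes the count equalled the summed counts of the gene's transcripts. In 98.8% of low WT and 98.8% of low cKO transcripts the count was an estimate rounded up. Low values gathered at even numbers (37.1% in WT and 34.7% in cKO, beside 17.7% and 19.1% at odd numbers), so 1 fragment was taken as 2 counts. Fragments are not independent molecules where PCR copied them.

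Library sizes were scaled with TMM factors (edgeR 4.0.16, R 4.3.3; DESeq2 1.42.0 as an alternative), and CPM, log2 ratios without a pseudocount and exact intervals were computed with scipy 1.17.1, numpy 2.4.6 and pandas 2.3.3 (Python 3.11.15, matplotlib 3.10.9), after testing on simulated data. No test was run, since a single library per genotype leaves nothing to estimate the spread from. Transcript structure came from GENCODE M21, which held 51633 of the gene IDs. The members and lists (13 lists, 108 genes) were chosen with earlier results of these data known. Named in each cluster were members past the size rule, the 3 of highest and 2 of lowest level and the C-type genes, transcripts with at least 10% of a gene's counts, and from the protocadherin-related lists members past the rule and the 3 of highest CPM. Other genes named (Ctcf, Smchd1, Dnmt3b, Abi1, Ptk2, Fyn, Axin1, Ttr, the serotonergic genes, Pcdhb12, Pcdhb22 and genes near the size limit) were chosen after their values were seen. So were Pcdh11x and Olig1. Marker lists are given by counts and sums.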

Additional observations from a re-analysis of the deposited data

How the results depend on the processing

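Calls, cluster sums and medians of the 3 protocadherin-related lists were recomputed with DESeq2 size factors, upper-quartile factors, total counts only, the deposited TPM (pseudocounts 0.1 and 1) and FPKM (0.1), and intervals on counts as deposited, and calls also with no filter, at least 5 CPM and a 2-fold limit. None of the 8 called members changed direction. At 2-fold, 3 members were higher instead of 5, and 3 related genes were lower instead of 10. Among related genes, none was higher in the main setting, and 1 was with upper-quartile factors and 1 with TPM and a pseudocount of 0.1. Pcdhb6 lost its call in 4 of 9 settings (its level is under 5 CPM), Pcdhga1 in 2 of 10 and Pcdhgc5 in 1 of 10. Pcdha11 (ENSMUSG00000102206), Pcdhga4, Pcdhga9, Pcdhgb8 and Pcdhgc3 kept theirs in all 10. Most settings could hardly move these ratios, since filters, fold limits and intervals leave a ratio unchanged and the scaling factors were nearly equal. For Pcdhgb8 the log2 ratio was 3.92 to 4.68 with TPM or FPKM and 4.77 to 4.79 otherwise. Pcdhgb1 gained a call (lower) with TPM and with FPKM at a pseudocount of 0.1, and Pcdhb1 (higher) with no filter. The gamma sum (log2 ratio -0.05) was -0.0104 with TPM and either pseudocount, -0.18 without Pcdhgb4 and, in alternatives added after seeing the data, 0.25 without Pcdhgc3, Pcdhga9 and Pcdhgb8 and 0.23 without the 5 genes of highest TPM. The median log2 ratio of all measured genes was 0.01 in the main setting and at most 0.03 with other scaling factors. It was 0.05 with the deposited TPM and a pseudocount of 0.1. No paired analysis was possible because each group has 1 library, and no library could be left out. Depth limits the low members, such as Pcdhb1 and Pcdhb21, and single-exon transcripts of few counts. What differs here between 2 libraries cannot be assigned to genotype, sex or animal.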
